A study of Mus musculus with 5 samples.

Results

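Synaptotagmins and the other genes of synaptic vesicle release were followed in the dLGN, the dorsal lateral geniculate nucleus of the thalamus, which passes visual signals on to the cortex, in newborn mice. The group was a fixed list of 40 genes, chosen by name: 14 synaptotagmins, 8 SNARE genes, 3 complexins, 8 genes of the active zone and of priming, and 7 genes of vesicle proteins. All 40 were found, among 18193 genes that the array names. Each gene is read at its brightest probe set, the one with the highest mean over the arrays, and its other probe sets serve as a check.

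Mice lacking both copies of Sema6A (Sema6A-/-) were compared with heterozygous controls, which keep 1 working copy. All were on a C57BL/6 background and taken at postnatal day 0. Each sample was a pool of dLGN tissue from pups of 1 genotype and several litters, with 2 knockout pools and 3 control pools on 1 array each. The labels give neither the construction of the allele nor the sex of the pups. The p-values below measure the spread between pools.

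Neurotransmitter release begins when a synaptic vesicle, held at the active zone by large scaffold proteins, is primed by Munc13 proteins. Its membrane protein synaptobrevin (Vamp2) then zippers with syntaxin 1 and SNAP-25 of the plasma membrane into a SNARE complex. Complexin clamps this complex, and a synaptotagmin that binds calcium triggers fusion. At birth, axons of the retina are growing into the dLGN and relay neurons are extending axons to the cortex, so the same genes serve presynaptic terminals that are still forming.

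Sema6a itself read 7.81 and 7.85 on the log2 scale in the knockout arrays and 10.39 to 10.65 in the controls, a log2 difference of -2.68 with a standard error of 0.12 (limma adjusted p = 0.0236). Of 19 measured markers of thalamic relay neurons 18 reached 6.41, the median of all probe sets, in at least 1 group. Slc17a6, Tcf7l2 and Rora were among them, and Ror1 did not reach it. The median deviation of these markers from the control mean was -0.01 in knockout replicate 1 and 0.09 in replicate 2. Single markers lay farther apart between these arrays: Slc6a4 read 7.98 and 10.60 (controls 10.60 to 10.85), Gbx2 9.02 and 11.22, and Cdh6 9.95 and 11.45. Zic4 went the other way, at 11.75 and 11.09. In limma, 33 of all 45037 probe sets had an adjusted p under 0.05, that of Sema6a among them, and with any 1 array left out 0 had. Knockout replicate 1 stood apart in markers of GABAergic and prethalamic cells, with 21 of 23 measured and a median 2.55 above the control mean there, but 0.18 above it in replicate 2. Their summed linear level was 12088 in replicate 1 and 2465 in replicate 2, while the controls ranged from 1629 to 2861. The control means of Dlx1, Dlx2, Dlx5, Dlx6, Isl1, Lhx1, Lhx6, Gata3, Sp8, Six3, Pvalb and Ecel1 lay below the median of all probe sets. That array also had the widest gap between the 3′ and 5′ control probe sets of Gapdh, 2.34, where replicate 2 had 0.96 and the control arrays 0.77 to 1.33.

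Most of the release genes lay close to the controls. For 36 of 40 the log2 difference between knockout and control was at most 0.4 in size, 4 exceeded 0.5, where 10.5% of all genes do, and only that of Syt17 exceeded 1, where 2.51% of all genes do. The differences were positive for 20 genes and negative for 20, with a median of 0.00 against 0.01 over all genes. No member passed an adjusted p of 0.05 in limma, where 0.0879% of all genes passed as higher and 0.0165% as lower. At an unadjusted p under 0.05, Syt17, Syt2, Syt10, Syt9 and Syn3 were higher, 12.5% of the members against 6.9% of all genes, and Sv2c was lower, 2.5% against 4.9%. Both knockout arrays lay above every control for 9 members, 22.5% against 15.8% of all genes, and below every control for 6, 15% against 13.9%. In whole tissue, fewer cells of a type and less RNA per cell cannot be told apart.

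**Figure D1:**
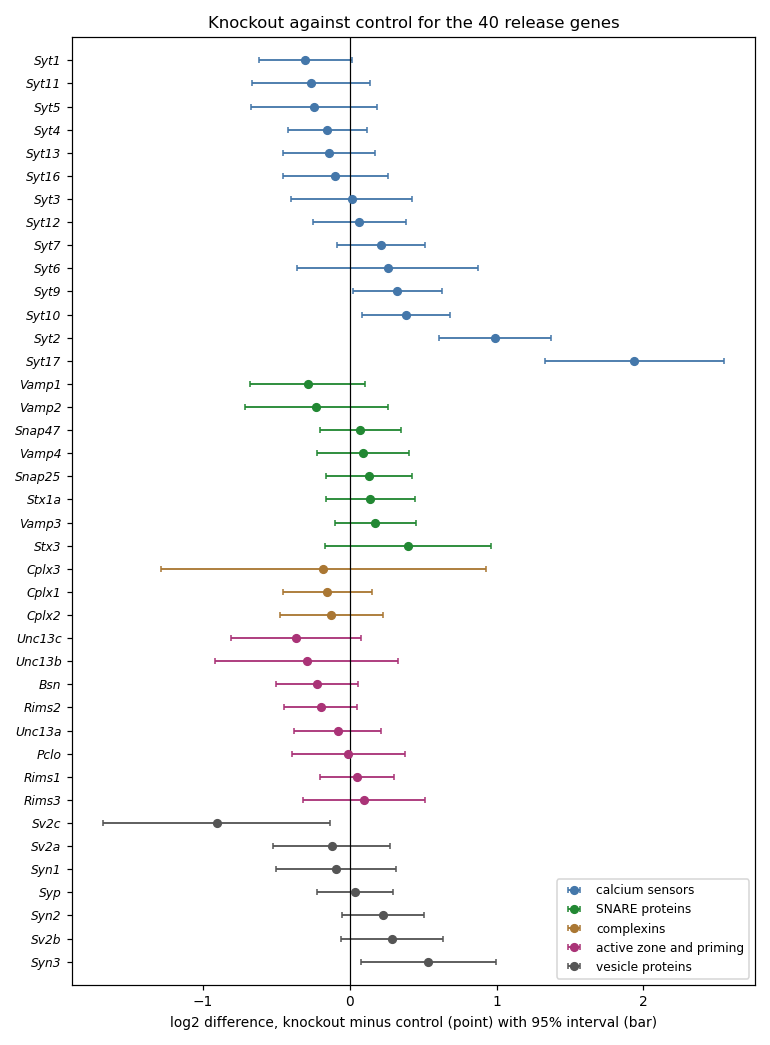
Log2 difference between knockout (2 arrays) and control (3 arrays) for each of the 40 genes at its brightest probe set, grouped by role. Points are fitted differences and bars 95% intervals from limma. Syt17 (1.94) and Syt2 (0.99) lie to the right of the others and Sv2c (-0.90) to the left, and 36 of the 40 points lie within 0.4 of 0.

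The calcium sensors held the largest differences. Syt17, which has a pair of C2 domains but no membrane-spanning part and is known from membrane traffic and axon growth, read 9.40 and 8.76 in the knockout arrays and 6.91, 7.11 and 7.41 in the controls. The groups did not overlap, and the lowest knockout array lay more than 1 log2 unit above the highest control. The mean was 9.08 ± 0.45 (SD, n = 2) against 7.14 ± 0.25 (SD, n = 3), a log2 difference of 1.94 with a standard error of 0.24, or 3.83-fold (limma adjusted p = 0.0973). By p-value this was rank 60 among genes higher in the knockout. With any 1 array left out the difference lay between 1.62 and 2.26, with limma adjusted p-values from 0.0854 to 0.417. Where a knockout array is left out, the lone one is assumed to vary like the controls, which alone give the spread. It was 1.62 without knockout replicate 1, the array with high GABAergic markers. A second probe set of Syt17, below the median of all probe sets, read 5.38 in both knockout arrays and 5.08 to 5.47 in the controls.

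Syt2 encodes a fast calcium sensor of synchronous release that is known from brainstem and inhibitory terminals. It read 6.40 and 6.73 in the knockout arrays and 5.70, 5.61 and 5.44 in the controls, again without overlap. The log2 difference was 0.99 with a standard error of 0.15, or 1.98-fold (limma adjusted p = 0.132), and it lay between 0.82 and 1.15 with any 1 array left out. The knockout mean was just above the median of all probe sets and the control mean below it. The other probe sets of Syt2, dimmer still, differed by 0.10 and 0.21 with overlapping groups.

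Syt9, a further fast sensor, read 11.13 and 11.24 in the knockout and 10.73, 10.89 and 10.96 in the control. The groups did not overlap, but the difference of 0.32 was small, with a standard error of 0.12 and a limma adjusted p of 0.425. Syt1, the main fast sensor of forebrain synapses, went the other way, with 12.19 and 12.48 in the knockout and 12.64, 12.66 and 12.63 in the control. Its difference was -0.30 with a standard error of 0.13 (limma adjusted p = 0.471), and -0.16 without knockout replicate 1. The fast sensors thus did not share a direction at their brightest probe sets.

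The promoter windows of Syt1, Syt2 and Syt9 are shown because all are fast sensors whose arrays did not overlap between genotypes. They are from RefSeq on GRCm38.p6, in the direction of the gene, from 250 bases before to 50 bases after an annotated start. Capitals mark the GC box GGGCGG or its reverse complement CCGCCC, the site that Sp-family factors are known to bind.
Syt1, upstream start (chr10:109010926-109011225, minus strand): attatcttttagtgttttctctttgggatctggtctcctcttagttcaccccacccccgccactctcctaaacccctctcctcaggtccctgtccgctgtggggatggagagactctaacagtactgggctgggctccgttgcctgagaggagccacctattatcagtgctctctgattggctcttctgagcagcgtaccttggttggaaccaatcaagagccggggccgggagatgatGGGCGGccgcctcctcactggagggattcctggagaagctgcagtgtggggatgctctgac
Syt1, downstream start (chr10:109009062-109009361, minus strand): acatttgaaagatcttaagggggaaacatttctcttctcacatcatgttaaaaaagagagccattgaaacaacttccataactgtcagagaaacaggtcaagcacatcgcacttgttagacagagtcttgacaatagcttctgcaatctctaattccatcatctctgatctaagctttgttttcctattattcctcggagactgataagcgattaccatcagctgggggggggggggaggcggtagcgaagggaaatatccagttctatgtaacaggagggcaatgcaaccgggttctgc
Syt2, upstream start (chr1:134646362-134646661, plus strand): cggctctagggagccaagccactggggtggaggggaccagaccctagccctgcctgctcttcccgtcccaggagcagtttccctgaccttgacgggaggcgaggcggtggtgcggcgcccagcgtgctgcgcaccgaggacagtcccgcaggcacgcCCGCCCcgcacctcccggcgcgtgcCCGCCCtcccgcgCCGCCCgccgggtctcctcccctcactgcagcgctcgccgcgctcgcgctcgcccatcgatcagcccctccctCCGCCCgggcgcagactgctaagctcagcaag
Syt2, downstream start (chr1:134709050-134709349, plus strand): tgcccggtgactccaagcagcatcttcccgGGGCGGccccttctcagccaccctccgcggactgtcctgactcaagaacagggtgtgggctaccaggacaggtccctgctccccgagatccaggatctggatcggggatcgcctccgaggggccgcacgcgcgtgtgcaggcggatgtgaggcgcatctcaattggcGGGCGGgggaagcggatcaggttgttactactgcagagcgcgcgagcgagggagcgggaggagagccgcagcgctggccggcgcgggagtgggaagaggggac
Syt9 (chr7:107370540-107370839, plus strand): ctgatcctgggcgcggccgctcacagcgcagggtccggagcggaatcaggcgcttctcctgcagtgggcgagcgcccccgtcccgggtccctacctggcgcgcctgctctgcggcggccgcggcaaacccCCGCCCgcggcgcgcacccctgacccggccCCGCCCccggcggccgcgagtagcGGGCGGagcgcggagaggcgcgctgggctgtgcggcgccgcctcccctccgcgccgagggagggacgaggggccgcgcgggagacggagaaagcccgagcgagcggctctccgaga
The windows of Syt2 held 4 and 2 GC boxes and that of Syt9 held 3, with 34, 28 and 49 CpG dinucleotides. Those of Syt1 held 1 and 0 GC boxes, with 8 and 6 CpG dinucleotides. Of the 40 genes, 29 had a window in the table, Syt17 not among them. Of their 38 windows, 26 (68.4%) held at least 1 GC box, against 35.7% of all 32851 windows of the same length. A match is a description of the letters and not a measured site, and its link to the differences in expression was not tested.

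Of the remaining synaptotagmins, Syt10, known from secretion of a growth factor by olfactory bulb neurons, was 0.39 higher (standard error 0.12, limma adjusted p = 0.353), but at 4.29 and 4.50 against 3.95 to 4.08 it stayed far below the median of all probe sets. Syt6 (0.26) and Syt12 (0.06) had levels below that median too. Syt7, a slow sensor of asynchronous release and facilitation, read 12.33 and 12.38 in the knockout and 12.04 to 12.27 in the control, while its other probe sets differed by -0.03, -0.02 and -0.21. Syt4 and Syt11, forms whose C2 domains bind calcium poorly or not at all, gave -0.15 and -0.26 at their brightest probe sets. The other probe set of Syt4 gave 0.07, and those of Syt11 gave 0.01, 0.08, -0.09 and -0.38. Syt3, Syt5, Syt13 and Syt16 lay between -0.24 and 0.01 at their brightest probe sets, and the dimmer one of Syt13 gave -0.35. Apart from Syt17, Syt2, Syt9 and Syt1, the synaptotagmins had limma adjusted p-values from 0.353 to 0.983.

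**Figure D2:**
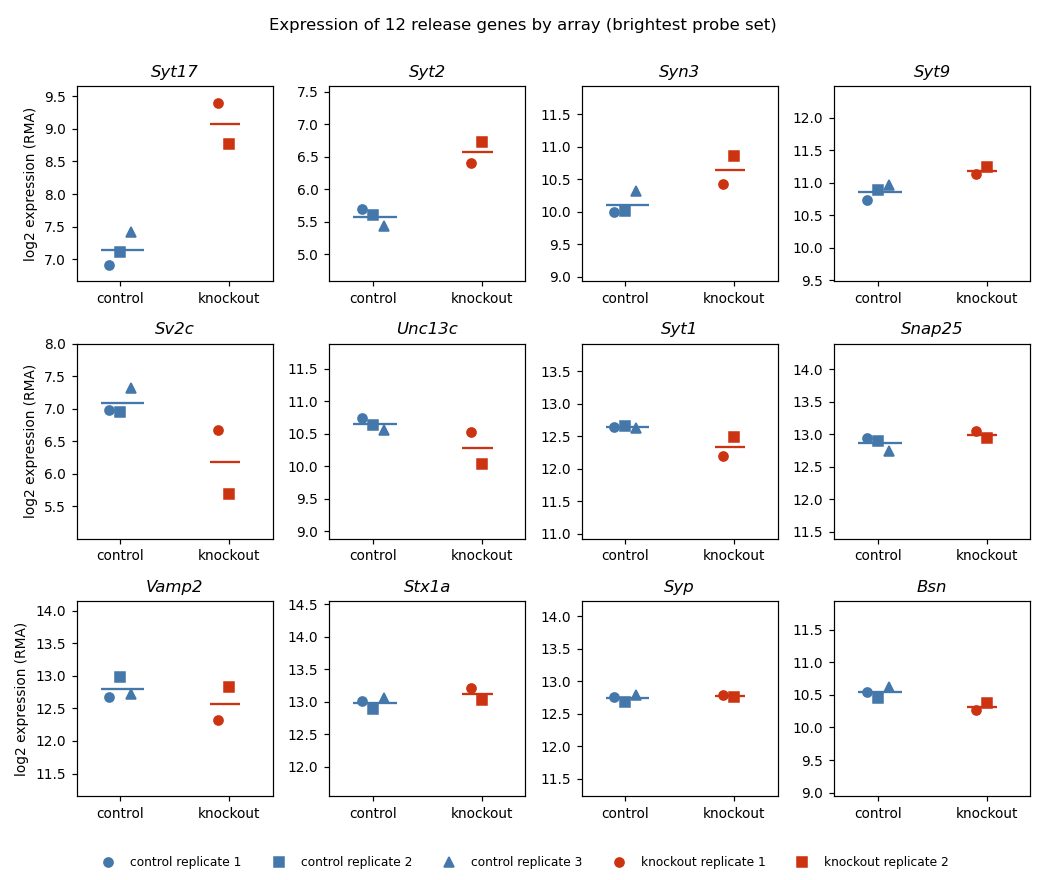
Log2 expression (RMA) of 12 release genes in each array at the brightest probe set, with 3 control arrays in blue and 2 knockout arrays in red. Horizontal lines are group means, and every panel spans 3 log2 units. Syt17 and Syt2 separate by genotype, the knockout arrays of Sv2c lie apart from each other at 6.67 and 5.69, and Snap25, Stx1a and Syp stay level.

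The core SNARE genes stayed near the controls. Snap25, the plasma membrane SNARE of neurons, read 13.04 and 12.94 in the knockout and 12.94, 12.89 and 12.74 in the control. The ranges overlapped slightly, and the difference was 0.13 with a 95% interval from -0.16 to 0.42 (limma adjusted p = 0.723). Its other probe set read 12.31 and 12.18 against 12.07, 12.08 and 11.63, without overlap, a difference of 0.32 (limma adjusted p = 0.568), and the average of both gave 0.23. Stx1a, the syntaxin of the fusion complex, read 13.21 and 13.03 against 13.01, 12.88 and 13.05, a difference of 0.14 with an interval from -0.16 to 0.44 (limma adjusted p = 0.708). The groups overlapped, and the other probe set of Stx1a gave -0.26. The suffix x_at of the brighter one marks probes that may also bind other transcripts.

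Vamp2, the synaptobrevin of most central synapses, read 12.32 and 12.82 in the knockout and 12.67, 12.99 and 12.73 in the control. Knockout replicate 1 was the lowest array and replicate 2 lay within the controls, so the difference of -0.23 (interval -0.71 to 0.26, limma adjusted p = 0.708) became 0.03 without replicate 1. Vamp1, the form known from motor and brainstem terminals, differed by -0.29 and the endosomal Vamp4 by 0.09. At the brightest probe sets Vamp3, the widely expressed cellubrevin, was the only SNARE member with both knockout arrays above every control. It read 11.91 and 11.92 against 11.68 to 11.84, a difference of 0.17. Its other probe sets gave 0.19, 0.21 and 0.10 without overlap, and the dimmest 0.33 with overlap. The brightest and those at 0.19 and 0.10 carry the suffix x_at too, so they may also bind other transcripts. Stx3, known from ribbon synapses and dendritic exocytosis, was at 11.56 and 10.94 in the knockout and at 11.02, 10.91 and 10.63 in the control, with only replicate 1 above the controls. Snap47 differed by 0.07 at its brightest probe set, which has the suffix x_at, and by -0.14 at the other, both with overlap. Adjusted p-values of the 8 SNARE genes in limma lay between 0.568 and 0.840.

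The complexins all had negative differences. Cplx1 gave -0.15 and Cplx2 -0.13 at the brightest probe sets, and Cplx3, the form of retinal ribbon synapses, gave -0.18 at a level below the median of all probe sets. None separated the groups at its brightest probe set, where the adjusted p-values in limma lay between 0.684 and 0.909. Both dimmer probe sets of Cplx2 were lower in the knockout without overlap. The dimmest read 9.77 and 9.85 in the knockout and 10.41, 10.16 and 10.20 in the control, a difference of -0.44 (limma adjusted p = 0.318). The other read 10.45 and 10.76 against 11.14, 10.83 and 10.86, a difference of -0.34 (limma adjusted p = 0.515).

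Of the 8 genes of the active zone and of priming, none passed an unadjusted p of 0.05 at its brightest probe set in limma. The means of 6 were lower in the knockout, where 48.4% of all genes have a lower mean, and the median difference was -0.14. Unc13c, the Munc13 isoform known from cerebellar granule cells, read 10.53 and 10.03 in the knockout and 10.75, 10.63 and 10.56 in the control. Knockout replicate 1 lay just under the lowest control, and the difference of -0.37 with a standard error of 0.18 (limma adjusted p = 0.526) was -0.11 without replicate 2 and -0.62 without replicate 1. The other probe sets of Unc13c separated the groups more widely. The first read 8.19 and 8.10 against 8.77, 8.97 and 9.19, a difference of -0.83 with a standard error of 0.15 (limma adjusted p = 0.176). The second read 7.52 and 7.26 against 7.96, 8.18 and 8.28, a difference of -0.75 (limma adjusted p = 0.201).

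The promoter window of Unc13c is shown because all 3 of its probe sets were lower in both knockout arrays.
Unc13c (chr9:73968988-73969287, minus strand): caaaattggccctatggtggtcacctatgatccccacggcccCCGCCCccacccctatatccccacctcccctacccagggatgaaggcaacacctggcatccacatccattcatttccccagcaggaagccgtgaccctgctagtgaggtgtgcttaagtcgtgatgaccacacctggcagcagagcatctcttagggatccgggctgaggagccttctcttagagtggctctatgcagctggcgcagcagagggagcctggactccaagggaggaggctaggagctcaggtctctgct
It held 1 GC box and 6 CpG dinucleotides, against a median of 19 CpG over the windows of the group and 7 over all windows.

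Rims2, an active zone scaffold that recruits calcium channels, read 11.92 and 11.95 in the knockout and 12.15, 12.13 and 12.13 in the control. The groups were tight and did not overlap, and the difference was -0.20 with a standard error of 0.10 (limma adjusted p = 0.535). Its dimmer probe sets gave -0.47, -0.69 and -0.42, each with both knockout arrays below every control, and the dimmest one -0.08 with overlap. Bsn, which encodes the scaffold Bassoon, read 10.27 and 10.37 against 10.55, 10.45 and 10.62, a difference of -0.22 (limma adjusted p = 0.539), while its other probe sets gave 0.02 and 0.03. Pclo, the related Piccolo, differed by -0.01 at its brightest probe set. Its dimmer probe sets gave -0.12 and -0.41, each with both knockout arrays below every control (limma adjusted p = 0.722 and 0.405). Rims1 gave 0.05 and Rims3 0.10, but a dimmer probe set of Rims3 read 6.85 and 6.90 against 6.55, 6.66 and 6.44, higher by 0.33 without overlap (limma adjusted p = 0.402). Unc13a, the main Munc13 of excitatory synapses, gave -0.08 and Unc13b -0.29, with knockout replicates 1 and 2 at 11.22 and 10.59.

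Among the vesicle proteins, Syn3 and Sv2c differed in opposite directions. Syn3, the synapsin expressed early in neuronal development, read 10.42 and 10.86 in the knockout and 9.998, 10.01 and 10.31 in the control. The groups did not overlap, and the difference was 0.53 with a standard error of 0.18, or 1.45-fold (limma adjusted p = 0.388). It was 0.31 without knockout replicate 2. A second probe set gave 0.55, and the dimmest, below the median of all probe sets, gave -0.26.

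Sv2c, the SV2 isoform known from basal ganglia and other restricted regions, read 6.67 and 5.69 in the knockout and 6.98, 6.96 and 7.32 in the control. Both knockout arrays were lower than every control but differed from each other by about as much as the groups did. The difference was -0.90 with a standard error of 0.31, or 1.87-fold lower (limma adjusted p = 0.385). It was -1.40 without knockout replicate 1 and -0.41 without replicate 2. The gene has 1 probe set here, and its promoter window is shown as that of the member with the most negative difference.
Sv2c (chr13:96132528-96132827, minus strand): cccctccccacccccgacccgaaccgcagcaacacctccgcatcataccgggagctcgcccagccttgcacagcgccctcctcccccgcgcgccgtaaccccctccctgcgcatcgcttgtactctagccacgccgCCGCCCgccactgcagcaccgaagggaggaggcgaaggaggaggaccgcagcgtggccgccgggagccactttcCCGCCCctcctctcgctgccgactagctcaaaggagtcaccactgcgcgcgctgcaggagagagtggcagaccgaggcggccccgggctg
It held 2 GC boxes and 32 CpG dinucleotides.

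The general vesicle markers stayed level. Syp, the synaptophysin found on nearly all synaptic vesicles, read 12.79 and 12.77 in the knockout and 12.75, 12.68 and 12.79 in the control, a difference of 0.04 with a 95% interval from -0.22 to 0.30 (limma adjusted p = 0.924). Syn1 gave -0.09 and Sv2a, the target of the drug levetiracetam, -0.12. Syn2 (0.23) and Sv2b (0.29) had both knockout arrays above every control, with limma adjusted p-values of 0.528 and 0.524. The second probe set of Sv2b gave 0.33, also without overlap. The 5 dimmer probe sets of Syn2 gave -0.07, -0.16, 0.01, -0.03 and -0.49, all with overlap.

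Probe sets of the same gene did not always give the same answer. The 40 genes had 98 probe sets, and 29 genes had more than 1. Of the 58 probe sets that were not the brightest, 8 were lower at an unadjusted p under 0.05, which is 13.8% against 8.19% of all probe sets that are not the brightest of their gene. The 2 that were higher, of Rims3 and Syn3, are 3.45%, near the 3.93% over all such probe sets. The 8 belonged to Syt1, Cplx2, Rims2, Unc13c and Pclo. In each the knockout arrays lay below every control, which follows largely from choosing them by p and is no separate support. Without knockout replicate 1, the array with the wide 3′ to 5′ difference of Gapdh, 4 of these 8 passed that threshold, namely both of Unc13c and 1 each of Syt1 and Rims2. All 8 had negative differences in that fit, from -0.88 to -0.40. The part of RNA quality in these differences was not tested.

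The probe sets of Syt1 ranged from -1.26 to -0.04. One of the dimmer ones read 9.79 and 10.62 in the knockout and 11.12, 11.18 and 12.08 in the control, a difference of -1.26 with a standard error of 0.39 (limma adjusted p = 0.348). Another read 6.65 and 6.99 against 7.53, 7.85 and 7.82, a difference of -0.91 (limma adjusted p = 0.170), and the last gave -0.04 with overlapping groups. Which transcript forms these probe sets read was not analysed here.

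**Figure D3:**
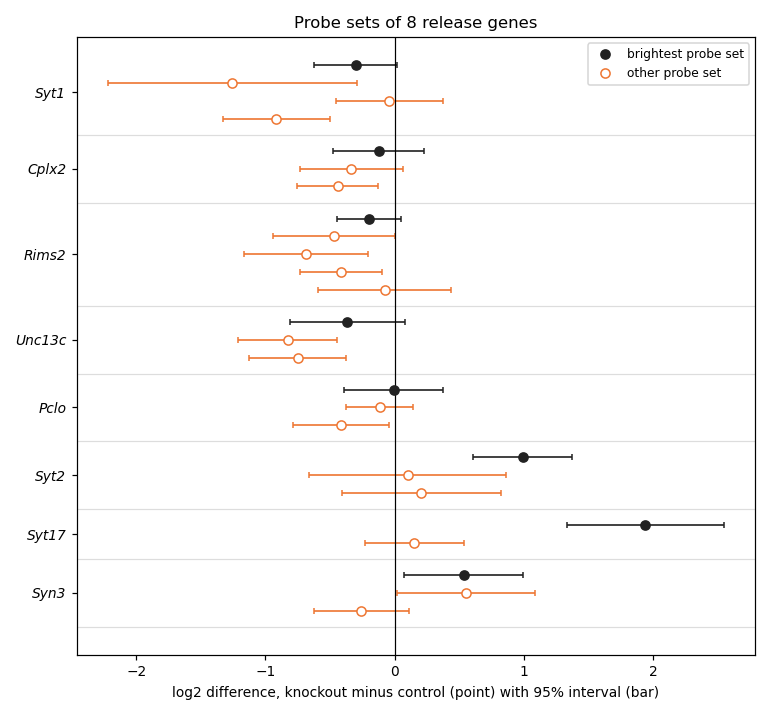
Log2 difference between knockout and control with its 95% interval for every probe set of 8 release genes, the brightest in black and the others as open orange circles. The dimmer probe sets of Syt1, Rims2 and Unc13c reach -1.26, -0.69 and -0.83, beyond the -0.30, -0.20 and -0.37 of the brightest, while Syt2 and Syt17 differ only at the brightest.

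The knockout arrays were compared with each other, because one of them carried high GABAergic markers. The median size of the difference between them was 0.21, against 0.19 over all genes. It exceeded 0.5 for 8 members, 20% against 16.3% of all genes. Of these, Sv2c, Syt17, Unc13b, Stx3, Syt6, Cplx3 and Unc13c were higher in replicate 1, where the GABAergic markers were high, and Vamp2 was higher in replicate 2. The part of GABAergic cells in these differences was not tested. Markers of microglia and macrophages, 17 of 18 measured, had a summed linear level of 16023 and 12269 in the knockout arrays against 3576 to 4165. Of the 17, 16 were higher without overlap, where 15.8% of all genes are, and Mrc1 gave -0.54 with overlap. The means of Itgam, P2ry12 and Ptprc stayed below the median of all probe sets in both groups, and the part of microglia in the differences was not tested. Markers of the oligodendrocyte lineage, 12 of 13 measured, had summed levels of 13729 and 14124 against 9885 to 10903. Without overlap, 7 of them were higher and 1, Mag, was lower (-0.92), where 15.8% and 13.9% of all genes are. The part of that lineage was not tested. Markers of all neurons, 18 genes, had summed levels of 138361 and 143869 against 141692 to 147523.

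**Figure D4:**
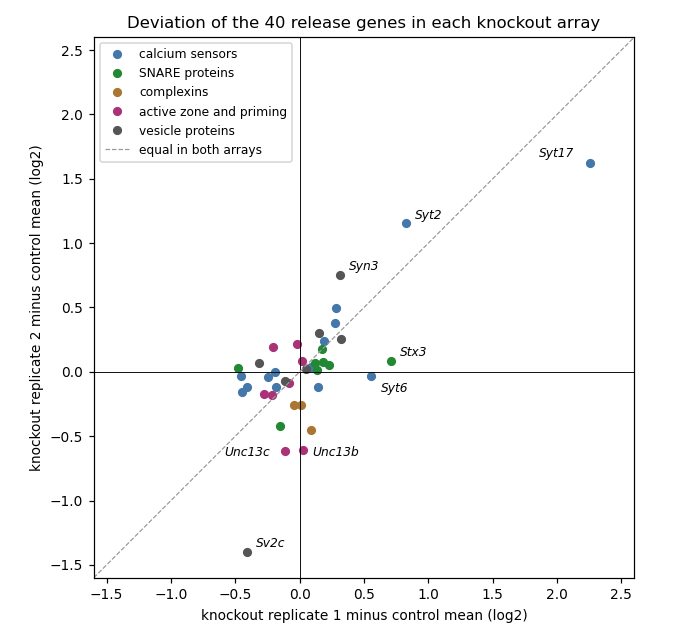
Difference of each of the 40 release genes from the control mean in knockout replicate 1 (horizontal axis) and knockout replicate 2 (vertical axis), both on the log2 scale, coloured by role. Syt17 and Syt2 lie far from 0 in both arrays, Sv2c (-1.40) and Syn3 (0.75) lie farther from 0 in replicate 2 than in replicate 1 (-0.41 and 0.31).

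Further genes of the release and recycling of vesicles were taken from 5 lists with 123 measured genes. None passed an adjusted p of 0.05 in limma. At an unadjusted p under 0.05, 13 were higher (10.6%, against 6.9% of all genes) and 6 were lower (4.88%, against 4.9%), and the medians of the lists lay between 0.02 and 0.07. Of 29 other SNAREs and their regulators 3 were higher and 2 lower, of 13 other calcium sensors 2 and 2, and of 24 other active zone genes 4 and 1. Of 23 other vesicle proteins 2 were higher and 1 lower, and of 34 endocytosis genes 2 and 0.

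Among the named genes of docking and priming, Rab3b, a small GTPase of synaptic vesicles, read 10.69 and 11.10 in the knockout and 8.67, 9.67 and 9.42 in the control, a difference of 1.65 with a standard error of 0.32 (limma adjusted p = 0.193). Baiap3, a Munc13-related protein of dense-core vesicle traffic, read 7.67 and 8.31 against 5.92, 6.29 and 6.94, a difference of 1.61 (limma adjusted p = 0.228). Neither overlapped between groups, and in both the higher knockout array was replicate 2. Rims4, the short RIM of the same family as Rims2, read 10.72 and 10.86 against 11.41, 11.56 and 11.44, a difference of -0.68 with a standard error of 0.12 (limma adjusted p = 0.156). Stxbp6, or amisyn, which binds syntaxin in place of synaptobrevin, read 9.63 and 10.62 against 11.60, 11.47 and 11.88, a difference of -1.52 (limma adjusted p = 0.207).

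Synpr, the synaptophysin relative synaptoporin, was at 9.41 and 8.08 in the knockout arrays and at 7.20, 7.18 and 7.56 in the controls. Rab27b, a GTPase of secretory vesicles, read 9.84 and 8.99 against 8.38 to 8.62. For both, replicate 1 was the highest array, and replicate 2 still lay above every control. The median of the GABAergic and prethalamic markers was 2.55 above the control mean in replicate 1 and 0.18 above it in replicate 2. The part of those cells was not tested. Slc18a2, which loads monoamines into vesicles, read 11.54 and 11.59 against 12.52, 12.50 and 12.28, a difference of -0.87 with a standard error of 0.12 (limma adjusted p = 0.120). Amph, the endocytic protein amphiphysin, read 10.65 and 10.54 against 9.79, 9.76 and 10.04, a difference of 0.73 (limma adjusted p = 0.173). The knockout arrays were close together in both genes.

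The other genes past the unadjusted threshold at or above the median level differed by at most 0.80 in size. Syngr2, a synaptogyrin of many tissues, gave 0.80, Stxbp5l, a tomosyn that holds back SNARE assembly, 0.60, and the SNAREs Vamp8 and Snap23, known from secretion outside synapses, 0.59 and 0.51. Esyt3 (0.44) and Esyt1 (-0.62), tethers between the endoplasmic reticulum and the plasma membrane, went opposite ways. The endocytic scaffold Itsn2 gave 0.42, the RIM-binding protein gene Rimbp2 0.36 and Stxbp4 -0.69. The adjusted p-values of the 17 genes named from these lists lay between 0.120 and 0.432 in limma.

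**Figure D5:**
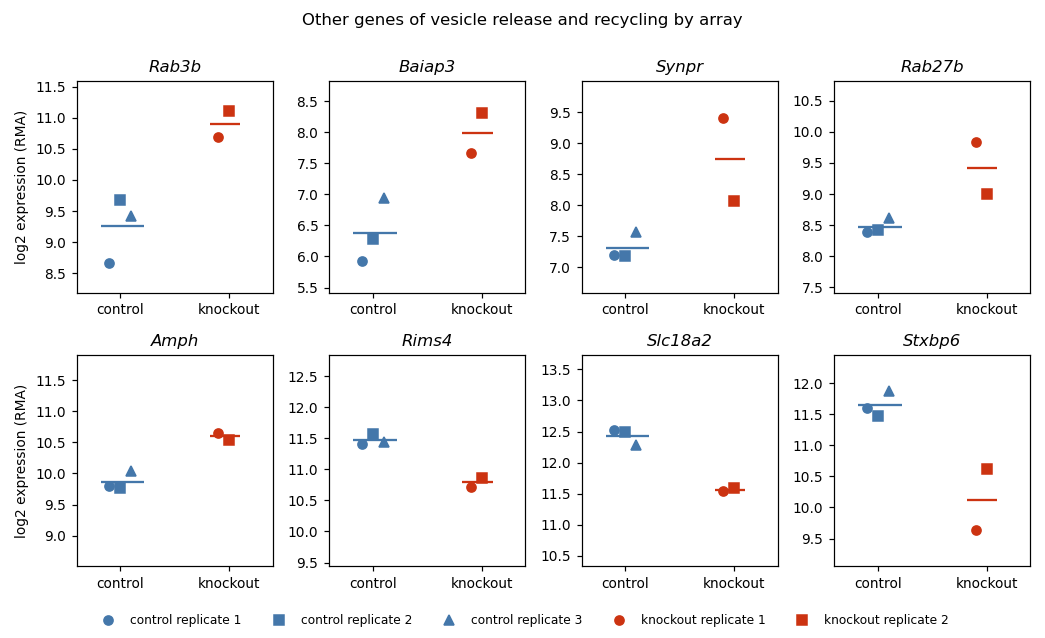
Log2 expression (RMA) of 8 other genes of vesicle release and recycling in each array, with 3 control arrays in blue and 2 knockout arrays in red. Horizontal lines are group means, and every panel spans 3.4 log2 units. The groups do not overlap in any panel, and the knockout arrays lie close together for Amph (10.65 and 10.54), Rims4 and Slc18a2 but apart for Synpr (9.41 and 8.08).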

How the data were processed

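The deposited values are log2 expression per probe set of 1-colour Affymetrix arrays, made by the authors with RMA per the submitters' processing notes (version not given in the sources used here). RMA equalises the arrays' distributions, which hides any shift common to most genes. Per the labels' protocols, 20 ng of RNA from 200 µm sections was amplified before labelling. That the scale is log2 follows from their range. Of 45101 probe sets, 64 array controls were left out, and GEO's platform annotation gave 34945 of the rest 1 gene, 932 several and 9160 none. Only probe sets with 1 gene were named. Knockout and control, grouped by title, were compared two-sided with limma 3.58.1 (lmFit, eBayes; R 4.3.3), genotype being the only term (2.52 prior and 3 residual degrees of freedom) and Benjamini-Hochberg adjustment over 45037 probe sets. The number of arrays limits the precision.

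The members and lists were chosen with earlier results of these data known. Described by array were Syt1, Snap25, Vamp2, Stx1a and Syp, members past an unadjusted p of 0.05 that reached the median of all probe sets in 1 group, and, at that level, the up to 4 with the largest difference in each direction whose groups did not overlap. Members whose knockout arrays differed by more than 1.5 would also have qualified, and none did. Genes of the pathway lists were named by the same p and level, up to 4 in each direction and list by smallest p. Other probe sets and other genes were picked after their values were seen. Tested on 10 simulated data sets, the fit made on average 3.0 false calls and found 62.8% of 4-fold and 21.6% of 2-fold changes. The simulated noise was normal, independent between probe sets and alike in both groups, with the spreads shuffled over probe sets. These figures therefore do not cover an array that differs in many genes at once, as knockout replicate 1 did. Alternatives tried were median centring, a further quantile normalisation, a block for the replicate number, leaving out dim probe sets, a trend or robust prior, array weights, each array left out and the mean of a gene's probe sets.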

Additional observations from a re-analysis of the deposited data

How the results depend on the processing

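No member passed an adjusted p of 0.05 in limma under any of the 12 alternative fits. For Syt17 the adjusted p lay between 0.0635 and 0.417 and for Syt2 between 0.0878 and 0.443. The count over all probe sets, 33, was 67 without dim probe sets, 100 with an intensity trend, 19 with array weights and 0 to 0 with each array left out, and the cause was not tested. The replicate numbers of 2 pairs of pools are shared only as numbers, with correlations of their deviations of 0.148 and 0.212. The deviations of the 2 knockout arrays mirror each other, so their correlations with a control differ only in sign and cannot judge the pairing. In the replicate block, control replicate 3 has no partner, and the differences equal those without that array (2.07 for Syt17). With that block 0 probe sets passed and 0 members were lower at an unadjusted p under 0.05. With each array left out, 2 to 6 members were higher and 0 to 2 lower on that basis, and 3 were lower with an intensity trend. The median of the members, 0.003, was -0.046 without dim probe sets (36 genes), -0.060 when each gene's probe sets were averaged and -0.033 to 0.036 with each array left out. Vamp2 changed sign without knockout replicate 1 (-0.48 to 0.027 with each array left out) and Stx1a with averaged probe sets (-0.06). Averaging also gave 1.05 for Syt17, 0.43 for Syt2, 0.28 for Syn3, -0.63 for Syt1 and -0.65 for Unc13c. The count of dimmer member probe sets that were lower, 8, was 4 to 10 with each array left out, and without knockout replicate 1 the other calcium sensors went from 2 higher and 2 lower to 1 and 0 and endocytosis genes from 2 higher to 1, alternatives chosen after seeing the data.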
